A study of Mus musculus with 4 samples.

Results

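The major urinary proteins, or Mups, were followed as 10 genes (Mup1, Mup2, Mup3, Mup4, Mup5, Mup6, Mup7, Mup10, Mup20 and Mup21) of the 17543 genes measured in mouse liver. They were chosen by family name and Entrez gene number, with earlier results of these data known. Of the 10, 4 (Mup1, Mup2, Mup7 and Mup10) belong to a central block of near-identical copies, and 6 (Mup3, Mup4, Mup5, Mup6, Mup20 and Mup21) are divergent. RNA sequencing was done on 4 flash-frozen livers of C57BL/6 mice: 2 labelled wild type (WT), and 2 labelled Ezh2(K307R/K307R), which carry a point mutation of the histone methyltransferase Ezh2 on both alleles. No other allele and no agent is given for either group. The labels state no sex, no age and no hour of collection. The labels do not say whether replicates came from separate animals, so p values measure only the spread between these livers.

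Mups are small secreted lipocalins, barrel-shaped proteins that carry volatile ligands. Hepatocytes make them in large amounts, the kidney passes them into urine, and there they act as scent signals between mice. Their transcription in liver is known to depend on growth hormone and its mediator STAT5, on androgen and on thyroid hormone, and to be higher in males than in females. Mup20 encodes darcin, a male sex pheromone protein, and Mup1 has been described as a circulating regulator of glucose and lipid metabolism.

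The family lies within 2194038 bases of chromosome 4 (chr4:59956804-62150841, build GRCm38). The deposited tables listed Mup genes to the number of 21: the 10 members and 11 further central copies (Mup8, Mup9 and Mup11 to Mup19), which makes 15 central copies in all. Transcripts of the 15 central copies were 98.3% to 99.7% identical to each other (median 99.0% over 105 pairs). Divergent members were 86.4% to 96.1% identical to each other over 15 pairs.

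The first 100 bases of the second coding exon are printed below because they show which members a read can tell apart. They come from the GENCODE M21 annotation and the GRCm38 genome, and capitals mark each base that differs from Mup2. Mup2 (chr4:60139253-60139352, minus strand) stands for the central copies: over this stretch Mup1 and Mup10 had 0 differences from it, and Mup7 had 1. Mup3 (chr4:62086834-62086933, minus strand) had 27, Mup20 (chr4:62053514-62053613, minus strand) had 13 and Mup4 (chr4:59960073-59960172, minus strand) had 12.
Mup2: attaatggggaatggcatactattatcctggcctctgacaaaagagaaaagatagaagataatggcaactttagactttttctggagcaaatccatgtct
Mup20: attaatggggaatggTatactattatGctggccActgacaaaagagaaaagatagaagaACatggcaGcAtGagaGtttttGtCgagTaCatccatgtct
Mup3: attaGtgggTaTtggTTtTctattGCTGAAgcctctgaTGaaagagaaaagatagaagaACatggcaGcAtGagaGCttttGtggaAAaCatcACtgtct
Mup4: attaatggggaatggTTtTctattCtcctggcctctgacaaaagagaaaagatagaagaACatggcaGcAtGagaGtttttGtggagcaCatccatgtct
Over whole transcripts, 2.66% of the 100-base windows of Mup2 occurred in no transcript of another numbered Mup gene. Other transcripts were not searched. The share was 12.8% for Mup1, 14.6% for Mup10 and 19.9% for Mup7, against 95.5% for Mup21, 97.1% for Mup3, 98.7% for Mup5 and 100% for Mup4, Mup6 and Mup20. In windows of 50 bases the shares were 80.9% to 98.2% for the divergent members and 0% to 13.8% for the central members. Reads of such lengths from divergent members can therefore mostly be told apart, though the read length is not given. Whether misplaced reads of abundant copies add to the low counts of Mup4, Mup5, Mup6 and Mup21 was not tested. Counts of single central copies rest on how the authors' software, RSEM, divided shared reads, are uncertain one by one, and are also given summed.

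The libraries held 18602928 to 20044832 expected counts, and 12839 genes passed the filter on low counts, all 10 members among them. Over all these genes, edgeR's quasi-likelihood test called 189 lower and 178 higher in the mutants at a Benjamini-Hochberg adjusted p under 0.05. With scaling to total counts alone the split was 124 lower and 188 higher, so that 60.3% of calls were higher rather than 48.5%. Counts of replicate livers were compared to see whether a pair could be the same library, and were further apart than reads drawn from 1 library would be (chi-square per degree of freedom 88.5 in WT and 48.4 in the mutants over genes with at least 10 reads). Ezh2 itself was at 3.35 and 3.93 CPM (counts scaled to a common effective library size) in WT and at 3.45 and 2.56 CPM in the mutants. A point mutation does not show in counts, so this level does not check the labels. Summed hepatocyte markers (8 genes, such as Alb and Ttr) were at 132900 and 132600 CPM in WT and at 122300 and 125900 CPM in the mutants, most of it Alb (101800 and 105200 CPM in WT). Apob, another of them, was at 4340 and 2606 CPM in WT.

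The libraries labelled WT and those labelled mutant also differed in sex chromosome genes and in clock genes. Xist, transcribed from the inactive X, was at 0.347 and 0.284 CPM in WT and at 327 and 573 CPM in the mutants. The Y-linked genes Ddx3y, Eif2s3y, Uty and Kdm5d were at 10.6 to 67.5 CPM in the WT livers and listed with no read in either mutant. Genotype and this sex chromosome pattern cannot be told apart in any contrast below. The clock gene Arntl was at 1.10 and 1.18 CPM in WT and at 12.3 and 23.7 CPM in the mutants, and Per2 at 45.0 and 45.5 CPM against 14.3 and 8.79 CPM. In edgeR's test with Benjamini-Hochberg adjustment, 5 of 17 clock genes rose and 3 fell, against 1.39% and 1.47% of all genes tested. DESeq2 called 4 higher and 6 lower, and limma 3 and 3. The call of Clock was lost without WT liver 2 and without mutant liver 2, and that of Npas2 without mutant liver 2. The parts of these differences in the Mup values were not tested.

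Levels between genes are compared here in FPKM (fragments scaled to transcript length and library depth). In WT the order of mean levels was Mup3 (7915 ± 6550 FPKM, SD, n = 2), Mup2 (5550 ± 4580), Mup10 (5234 ± 4390), Mup20 (2501 ± 1580), Mup7 (789 ± 1060), Mup1 (303 ± 412) and Mup21 (44.7 ± 21.4). Mup6, Mup5 and Mup4 followed at 5.19 ± 5.86, 3.77 ± 4.52 and 2.69 ± 2.92 FPKM. Read over the 2 livers, the ranges of neighbours in this order overlapped, except those of Mup21 (29.6 to 59.8 FPKM) and Mup6 (1.04 to 9.33 FPKM). These ranges are wide because WT liver 1 was above WT liver 2 in every member. Within each WT liver, Mup3, Mup2, Mup10, Mup20 and Mup7 stood in the order given, from 12544 to 1537 FPKM in WT liver 1 and from 3286 to 41.7 FPKM in WT liver 2. In wild-type liver 1, Mup3 ranked 2 among all genes by FPKM, Mup2 ranked 11 and Mup10 ranked 12.

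In the mutants the order was led by Mup2 (3594 ± 1010 FPKM, SD, n = 2), Mup10 (3021 ± 595) and Mup3 (2443 ± 56.7). Then came Mup20 (86.1 ± 20.8 FPKM), Mup7 (25.2 ± 4.77), Mup21 (18.0 ± 0.262) and Mup1 (9.78 ± 4.30). Mup6, Mup5 and Mup4 were again lowest, at 8.07 ± 5.56, 5.99 ± 4.14 and 2.43 ± 2.37 FPKM. Here the ranges of Mup2 and Mup10 overlapped, as did those of Mup1, Mup6, Mup5 and Mup4 with their neighbours, while Mup3, Mup20, Mup7 and Mup21 each stood apart. Within each mutant liver, Mup2 was above Mup10. Among all genes, Mup20 ranked 25 and 52 in the WT livers and 967 and 701 in the mutants.

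**Figure D1:**
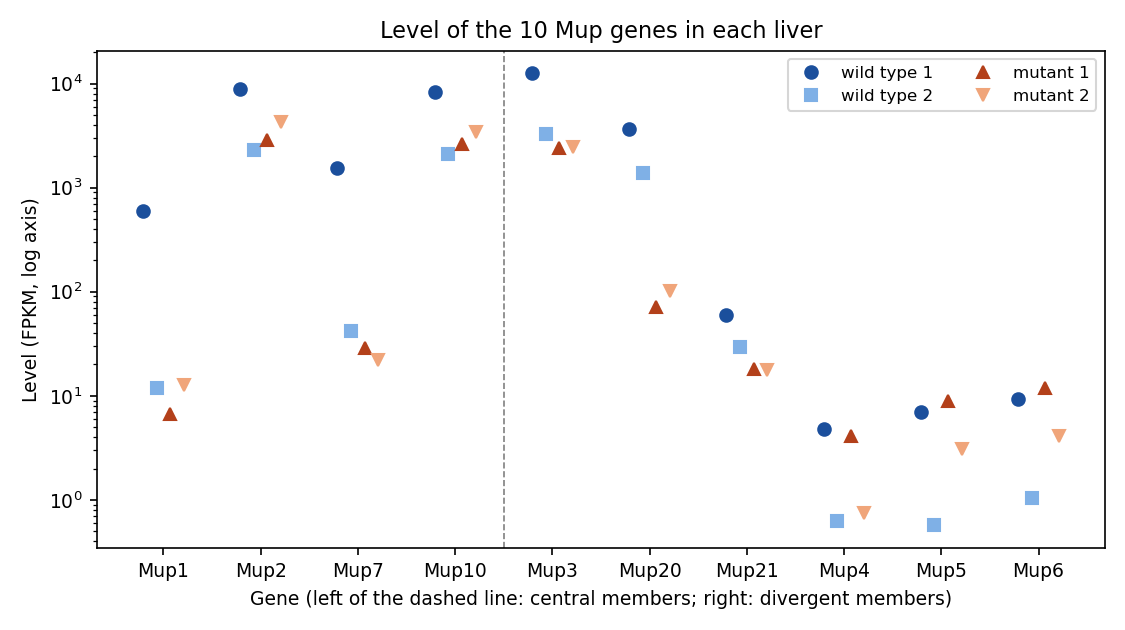
Level of each of the 10 Mup genes in FPKM, on a log axis, with 1 point per liver (circles and squares, WT livers 1 and 2; triangles pointing up and down, mutant livers 1 and 2). Mup20 has both mutants, at 71.4 and 100.7 FPKM, far below both WT livers, at 3622 and 1381 FPKM, while Mup2 and Mup10 have WT liver 2 below both mutants.

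Mup20 was the member with the clear difference between the groups, in which genotype and the sex chromosome pattern cannot be told apart. Its level was 3573 CPM in WT liver 1 and 1157 CPM in WT liver 2, and 62.2 and 85.2 CPM in the mutants. Both mutants lay below both WT livers, and the mean was 32.1-fold higher in WT. The log2 fold change, mutant over WT, was -5.00 (SE 0.57, 95% interval -6.32 to -3.68), with an adjusted p of 0.00645 in edgeR's quasi-likelihood test with Benjamini-Hochberg adjustment. In bulk liver, fewer cells that make a transcript and less of it per cell cannot be told apart.

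Of the 10 members, Mup20 was the 1 called lower, against 1.47% of all genes tested, and 0 were called higher, against 1.39%. At an unadjusted p under 0.05, 5 members were lower (Mup1, Mup3, Mup7, Mup20 and Mup21), against 8.31% of all genes tested, and 0 higher, against 8.5%. Of the 5, Mup1 and Mup7 share reads. DESeq2 called Mup20 and Mup21 lower. Among the 189 genes called lower, Mup20 ranked 2 by mean level in WT and 17 by log2 fold change. It was called lower in all 12 of the other settings tried, and leaving out each liver in turn gave log2 fold changes from -5.60 to -3.97. A fit without 1 liver holds a single liver of that genotype. A gene's own spread there comes from the pair of the other genotype (residual df 1), and edgeR draws it toward the spread of other genes.

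Mup20 was also lower relative to its own family. In FPKM, its level was 0.289 and 0.420 times that of Mup3 in WT, and 0.0297 and 0.0406 times in the mutants. Against the 4 central members summed, the ratio was 0.188 and 0.308 in WT and 0.0129 in each mutant. The ratio to Mup3 was on average 10.1-fold higher in WT than in the mutants, and the ratio to the central members 19.1-fold. A factor that scales a whole library cancels in these ratios. With 2 livers against 2, an exact permutation test cannot go below p = 0.333, so none is given for them.

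Mup3 was the most abundant member in WT. It was at 12600 CPM in WT liver 1, 2804 CPM in WT liver 2, and 2133 and 2140 CPM in the mutants. The mutants were nearly equal and lay below both WT livers, but WT liver 2 was much closer to them than to WT liver 1. The log2 fold change was -1.85 (SE 0.60, 95% interval -3.25 to -0.45) and missed the threshold, with an adjusted p of 0.171 in edgeR's test.

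Mup21, the closest relative of Mup3 at 96.1% identity over 596 aligned transcript bases, also had both WT livers above both mutants, at a far lower level. Its values were 49.0 and 20.6 CPM in WT and 13.2 and 12.5 CPM in the mutants, without overlap. The log2 fold change was -1.44 (SE 0.37), with an adjusted p of 0.0948 in edgeR's test and 0.00362 in DESeq2. In FPKM, the ratio of Mup21 to Mup3 was 0.00477 and 0.00901 in WT and 0.00757 and 0.00718 in the mutants, so that both mutants lay between the WT livers.

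Mup4, Mup5 and Mup6 were nearly silent in these livers, under 10 CPM in every library. Mup4, known best from glands outside the liver, was at 4.57 and 0.520 CPM in WT and at 3.45 and 0.614 CPM in the mutants. Mup5 was at 6.65 and 0.473 CPM in WT and at 7.48 and 2.51 CPM in the mutants. Mup6 was at 5.38 and 0.520 CPM in WT and at 6.10 and 2.05 CPM in the mutants.

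All 3 genes differed several-fold between livers of 1 genotype, and the genotypes overlapped. Their log2 fold changes were -0.31 (SE 0.97), 0.51 (SE 0.93) and 0.49 (SE 0.88), with adjusted p of 0.912, 0.837 and 0.834 in edgeR's test. In WT liver 2 each rested on 9.7 to 10.7 expected counts, so counting error alone is large there. Without WT liver 1, Mup5 and Mup6 were called higher in the mutants, at 3.38 and 2.95 on the log2 scale with adjusted p of 0.0214 and 0.0388 in edgeR's test.

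The central members did not separate the genotypes. Summed over Mup1, Mup2, Mup7 and Mup10, they were at 17900 CPM in WT liver 1 and 3484 CPM in WT liver 2, and at 4444 and 6054 CPM in the mutants. Both mutants lay between the WT livers. The log2 fold change was -1.03 (SE 0.64, 95% interval -2.51 to 0.46; adjusted p = 0.482 in edgeR's test).

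Which WT liver was kept set the sign of that difference. Without WT liver 1 the log2 fold change of the summed central members was 0.59 (adjusted p = 0.399, edgeR), and without WT liver 2 it was -1.77 (adjusted p = 0.00373). Summed over all 15 central copies the livers stood at 33770 and 4589 CPM in WT and at 10340 and 11780 CPM in the mutants, with a log2 fold change of -0.79 (SE 0.73, adjusted p = 0.646, edgeR). That sum was called higher in the mutants without WT liver 1 (1.27, adjusted p = 0.0266, edgeR) and lower without WT liver 2 (-1.61, adjusted p = 0.0025). Each of these fits has 1 WT liver, and its p rests on the spread of the mutant pair, drawn toward that of other genes.

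Mup2 and Mup10 held most of the central members' counts. Mup2 was at 7342 and 1639 CPM in WT and at 2126 and 3088 CPM in the mutants (log2 fold change -0.78, SE 0.60, adjusted p = 0.574, edgeR). Mup10 was at 8295 and 1796 CPM in WT and at 2284 and 2936 CPM in the mutants (log2 fold change -0.95, SE 0.60, adjusted p = 0.490, edgeR). In both genes WT liver 2 was the lowest of the 4 livers.

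Mup1 and Mup7 were high in WT liver 1 alone. Mup1 was at 515 CPM there and at 8.71, 5.14 and 9.51 CPM in WT liver 2 and the mutants (log2 fold change -5.16, SE 1.49, adjusted p = 0.125, edgeR). Mup7 was at 1745 CPM there and at 40.2, 28.7 and 21.3 CPM in the other livers (log2 fold change -5.16, SE 1.39, adjusted p = 0.106, edgeR). Their log2 fold changes were as large as that of Mup20, but without WT liver 1 they were -0.25 and -0.69, against -3.97 for Mup20.

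**Figure D2:**
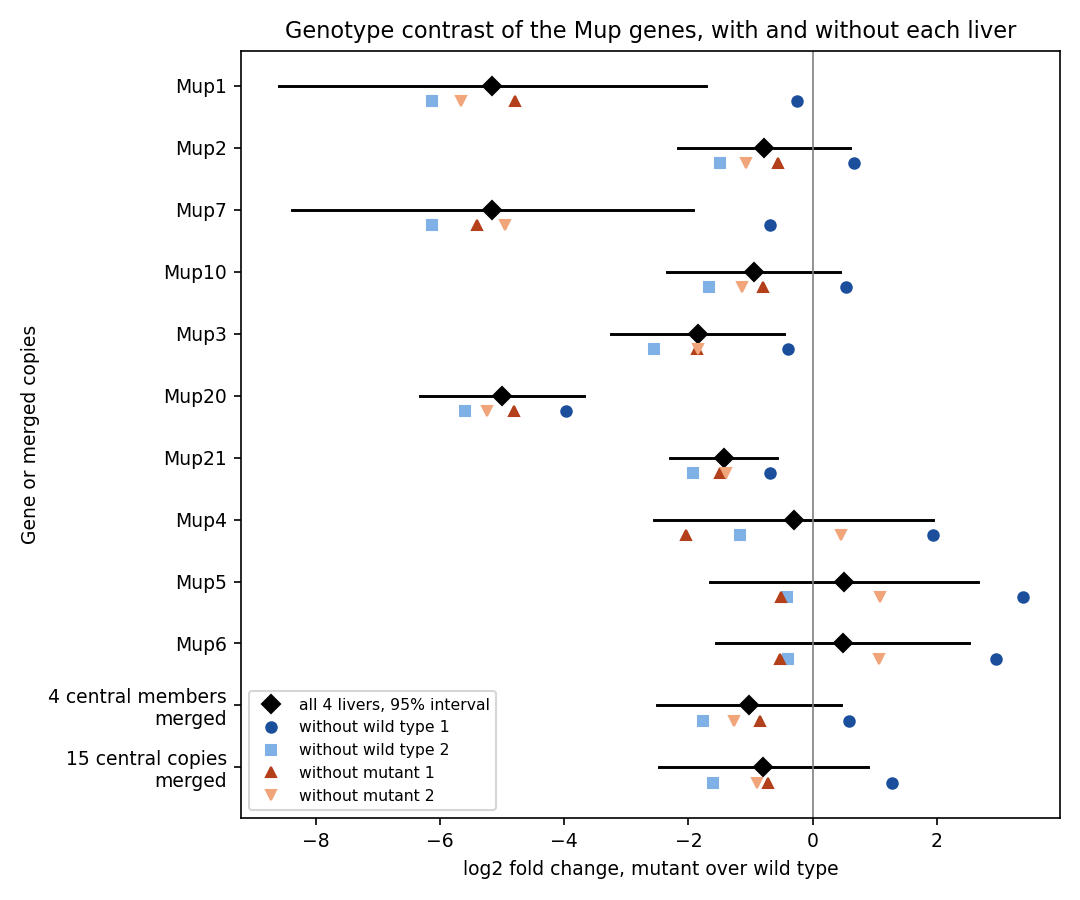
Log2 fold change, mutant over WT, of each member and of the summed central copies (black diamonds with 95% intervals, all 4 livers), with the value after leaving out each liver (coloured symbols below). Without WT liver 1 (circles) the values move right for all 10 members, past 0 for the summed central copies, while Mup20 stays at -3.97.

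Among the further central copies, Mup19 and Mup14 took very different shares of the shared reads in the 4 livers. Mup19 was at 2301 and 57.7 CPM in WT and at 4179 and 3431 CPM in the mutants (log2 fold change 1.69, SE 1.18), with both mutants above both WT livers. Mup14 was at 4897 and 69.9 CPM in WT and at 5.73 and 17.7 CPM in the mutants (log2 fold change -7.73, SE 1.78). In edgeR's test 0 of the 10 further copies tested were called. At an unadjusted p under 0.05 in that test, 5 were lower and 1 higher, against 8.31% and 8.5% of all genes tested. DESeq2, which had no such filter, called Mup8, Mup9 and Mup14 lower, and limma called 0. None of the 100-base windows of Mup19 was its own (0%), and 8.60% of those of Mup14 were, so that neither can be read apart from the sum. Both copies are named because their values stood out, not by a rule.

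Seen as a share of all counts, the 10 members made up 3.06% and 0.787% of the expected counts in the WT livers and 0.676% and 0.866% in the mutants. The mutants overlapped WT liver 2, and the mean difference, mutant minus WT, was -1.15 percentage points (exact permutation test, two-sided, p = 0.667). Without WT liver 1 that difference was -0.016 points. All 21 Mup genes made up 4.48% and 0.904% of counts in WT and 1.27% and 1.46% in the mutants (exact permutation test, two-sided, p = 1.0).

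Within the family, the shares of some transcripts separated the genotypes and those of others did not. Mup20 made up 7.15% and 13.5% of all Mup counts in the WT livers and 0.495% and 0.608% in the mutants. Mup3 made up 25.2% and 32.7% in WT and 17.0% and 15.3% in the mutants. The 15 central copies made up 67.5% and 53.5% in WT and 82.3% and 84.0% in the mutants. None of these 3 shares overlapped between the genotypes, but together they hold nearly all Mup counts and are not separate measurements, and the sum of 15 was chosen after seeing the data. Levels failed to overlap in 23.3% of all genes tested with the mutants lower and in 25.2% with the mutants higher. The 4 central members made up 35.8% and 40.6% of Mup counts in WT and 35.4% and 43.2% in the mutants, which overlapped, as did the shares of Mup2 and Mup10.

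**Figure D3:**
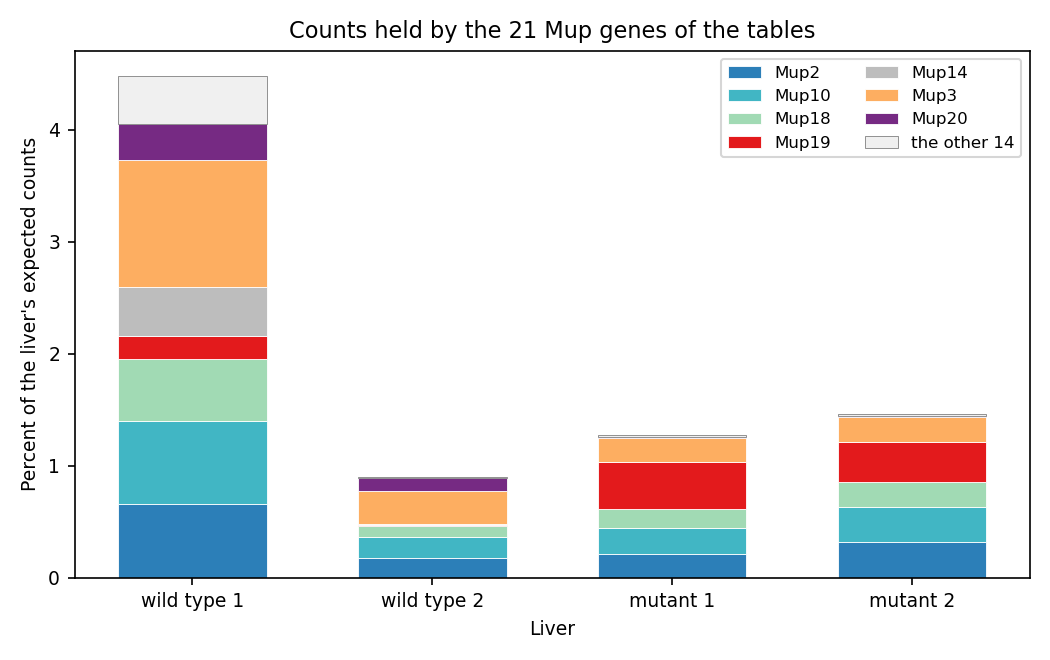
Percent of each liver's expected counts held by the 21 Mup genes, stacked by gene, with 14 of them drawn together at the top. WT liver 1 stands at 4.48%, and the other livers between 0.904% and 1.46%; the segment of Mup20 is visible in the WT livers alone.

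The WT livers differed from each other across the whole family. All 10 members were more than 2-fold higher in WT liver 1 than in WT liver 2, with a median of 6.37-fold, against 2.18% of all genes tested and a median of 0.994-fold. In 0 members was WT liver 2 the higher by that much, against 6.07%. The smallest ratios were those of Mup21 (2.38-fold) and Mup20 (3.09-fold). Mup3, Mup2 and Mup10 stood at 4.50-fold, 4.48-fold and 4.62-fold. The largest were Mup7 (43.5-fold) and Mup1 (59.2-fold), both in shared reads. The 4 central members share reads and are not separate measurements of this difference.

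WT liver 2 was below both mutants for 5 members (Mup2, Mup4, Mup5, Mup6 and Mup10), above both for 4 (Mup3, Mup7, Mup20 and Mup21) and between them for Mup1. For those 4, both mutants lay below both WT livers, against 23.3% of all genes tested, and 0 members had both mutants above both WT livers, against 25.2%. The mutant livers differed from each other by more than 2-fold in 3 members (Mup4, Mup5 and Mup6), against 5.82% of all genes tested. Without WT liver 2, 7 members were called lower (Mup1, Mup2, Mup3, Mup7, Mup10, Mup20 and Mup21), against 1.95% of all genes, and 0 were called higher, against 2.08%. With 1 WT liver kept, the spread in that fit is that of the mutants, drawn toward that of other genes. The difference between the WT livers does not enter it. Without WT liver 1, Mup20 alone was called lower, against 2.47%, and 2 members were called higher, against 2.15%. Nothing in the labels sets the WT livers apart.

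**Figure D4:**
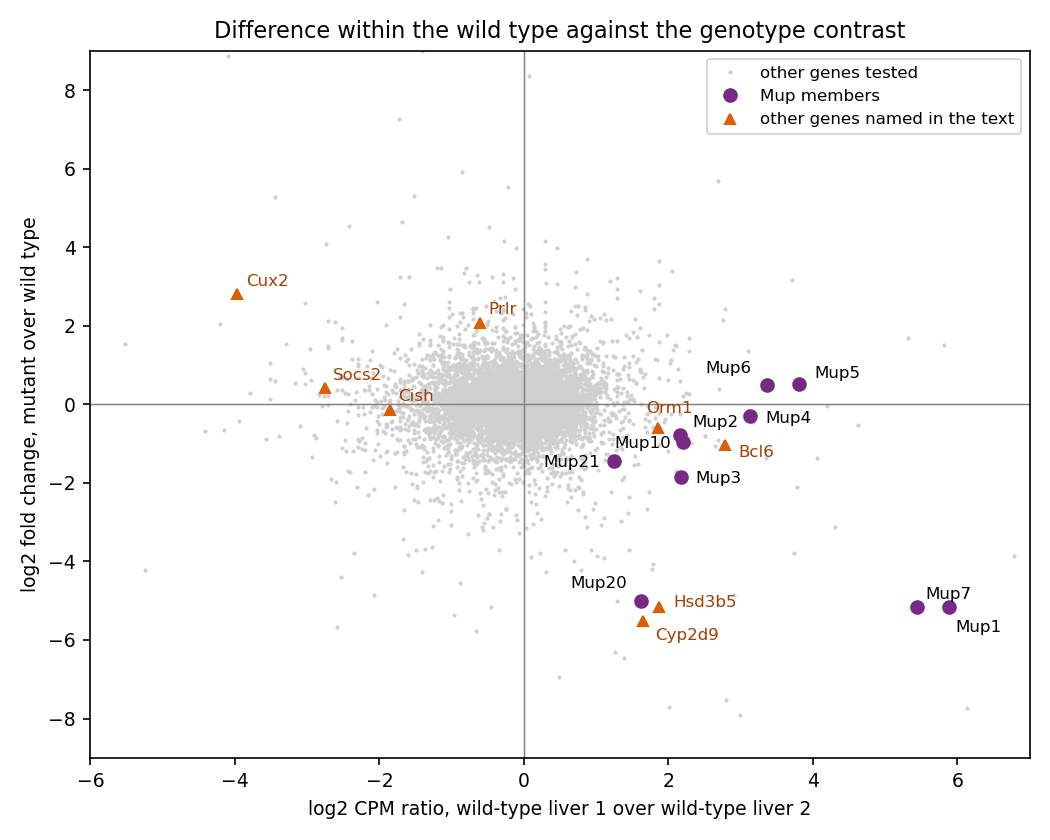
Each point is a gene: the x axis gives the log2 ratio of WT liver 1 to WT liver 2 in CPM, the y axis the log2 fold change, mutant over WT, for 12796 genes tested with reads in both WT livers (9 lie outside the axes). The 10 Mup members (large purple circles) all lie right of 1 on the x axis, and Mup20 lies at -5.00 on the y axis with a smaller x value than every other member except Mup21.

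The genes whose 4 values most resembled those of the summed central members were found by the distance between centred log2 CPM values, among 7382 genes with a mean of at least 10 CPM. The nearest were Mup18, Bcl6, Slc22a7, Orm1 and Adh6-ps1 (distances 0.33 to 0.67 on the log2 scale). Bcl6, a transcriptional repressor that binds many of the sites used by STAT5, was at 77.5 and 11.2 CPM in WT and at 21.2 and 22.1 CPM in the mutants. Orm1, an acute phase lipocalin, was at 1300 and 359 CPM in WT and at 542 and 552 CPM in the mutants. In each of the 5, WT liver 1 was highest and WT liver 2 lowest, as in the sum of the central members by which they were picked. Among the single central members, Mup2 and Mup10 had that order, while Mup1 and Mup7 were not lowest in WT liver 2.

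Those nearest to Mup20, among 7385 genes, were Cyp2d9, Hsd3b5, Slc22a28, Serpina1e and Selenbp2 (distances 0.51 to 1.31). Cyp2d9, a steroid hydroxylase known for its higher level in males, was at 1287 and 411 CPM in WT and at 15.1 and 21.9 CPM in the mutants. Hsd3b5, a steroid-metabolising enzyme of male liver, was at 419 and 115 CPM in WT and at 3.45 and 11.4 CPM in the mutants. Serpina1e, an alpha-1-antitrypsin gene, was at 15110 and 9356 CPM in WT and at 917 and 616 CPM in the mutants. All 5 were called lower in edgeR's test (log2 fold changes -3.87 to -5.52, adjusted p 0.00336 to 0.0172), against 1.47% of all genes tested. They were picked for values like those of Mup20, which was itself called lower, so these calls follow from the choice and add no evidence. These resemblances over 4 livers are descriptions.

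A list of 28 male-biased liver genes was read beside Mup20; it was assembled with these data known and is no independent evidence. Of the list 18 fell and 0 rose in edgeR's test, against 1.47% and 1.39% of all genes tested, with a median log2 fold change of -3.02, against 0.011 over all genes tested. DESeq2 called 19 lower and limma 13. Of the 18 calls, 4 were lost without mutant liver 2 (Ces4a, Gstp1, Nudt7 and Tff3) and 1 without mutant liver 1 (Keg1), and the fold change of 12 moved by over 1.5 times without 1 liver. Its smallest p values belonged to Cib3, Serpina1e, C6, Selenbp2, Cyp2d9 and Cyp2u1, with log2 fold changes from -3.13 to -5.78. Mup20, with -5.00, lay within that range, and Mup3 and Mup21 lay outside it. WT liver 1 exceeded WT liver 2 by more than 2-fold in 19 of the 28 genes, against 10 of 10 Mup members and 2.18% of all genes tested. WT liver 2 was the higher by that much in 2 of the 28, against 6.07% of all genes tested.

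The start sites of 7 of the 10 members had promoter windows in the RefSeq-based table of GRCm38.p6; Mup1, Mup5 and Mup20 had none. The 250 bases before the start are printed for Mup2 (chr4:60139857-60140106, minus strand), Mup3 (chr4:62087318-62087567, minus strand) and Mup4 (chr4:59960668-59960917, minus strand), because these 3 run from among the most abundant transcripts of liver to a nearly silent gene. RefSeq's annotated span of Mup2 reaches to chr4:60139977, upstream of the start used here. Part of its printed stretch, with the marked TATATAA, therefore lies inside that span. Capitals mark the letters TATATAA of the usual TATA box and the letters ATCAATA of the core bound by ONECUT factors.
Mup2: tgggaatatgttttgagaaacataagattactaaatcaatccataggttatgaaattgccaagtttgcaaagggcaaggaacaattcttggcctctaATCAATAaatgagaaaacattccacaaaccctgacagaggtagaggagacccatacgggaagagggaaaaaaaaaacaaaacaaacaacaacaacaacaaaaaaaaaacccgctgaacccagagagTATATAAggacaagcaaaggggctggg
Mup3: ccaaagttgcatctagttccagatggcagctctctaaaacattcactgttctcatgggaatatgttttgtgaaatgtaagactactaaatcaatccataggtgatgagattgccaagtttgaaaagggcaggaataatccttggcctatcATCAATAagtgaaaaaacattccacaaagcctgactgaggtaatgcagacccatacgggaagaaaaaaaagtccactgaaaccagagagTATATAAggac
Mup4: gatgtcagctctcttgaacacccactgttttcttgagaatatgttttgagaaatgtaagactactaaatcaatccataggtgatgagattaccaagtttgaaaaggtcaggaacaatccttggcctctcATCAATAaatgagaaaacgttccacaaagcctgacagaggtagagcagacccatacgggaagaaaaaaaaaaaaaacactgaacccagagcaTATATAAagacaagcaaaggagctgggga
On aligned bases the window of Mup2 was 88.6% identical to that of Mup3 and 91.7% identical to that of Mup4. The levels of Mup2 and Mup4 differed by orders of magnitude in every liver.

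Motifs were searched on both strands of windows from 250 bases before to 50 bases after each start. ATCAATA occurred in 7 of 7 member windows, against 2.05% of 32851 windows of all genes. TATATAA occurred in 6 of 7, all but Mup7, against 3.24%. The CCAAT box occurred in 1 of 7 (Mup7), against 37.4%, and the STAT5 motif TTCNNNGAA occurred in 0 of 7, against 8.3%. In Mup2, Mup4, Mup6 and Mup10 the TATATAA began 27 to 30 bases before the start used for the window, and in Mup10 a match on the other strand overlapped it. The annotated spans of Mup2 and Mup10 reach further upstream than that start, past the TATATAA. In Mup3 the TATATAA began 11 bases before the start, and in Mup21 it began 8 bases before it. In Mup7 the ATCAATA began 19 bases before the start, against 153 in Mup2, so these windows cover different stretches. The place that TATATAA holds in Mup2 lies past the window of Mup7, and the CCAAT match of Mup7 begins before the window of Mup2. The windows are copies of each other in large part, so the 7 are not independent, and a match is no measured binding. A missing match says only that these letters are not in the window.

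Among 17 genes of growth hormone and other hormone signalling, 4 rose in the mutants and 0 fell in edgeR's test, against 1.39% and 1.47% of all genes tested, with a median log2 fold change of 0.20. DESeq2 called 5 higher, and limma called Prlr alone. Prlr, the prolactin receptor, was at 108 and 164 CPM in WT and at 527 and 621 CPM in the mutants (log2 fold change 2.08, SE 0.28, adjusted p = 0.0122, edgeR). Thra, a thyroid hormone receptor, rose by 1.23, Irs2, an adaptor of the insulin receptor, by 3.13, and Stat5a by 1.23 on the log2 scale.

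The call of Stat5a was lost without WT liver 2 (adjusted p = 0.0858, edgeR) and without mutant liver 2 (0.181). That of Thra was lost without mutant liver 1 (0.0797) and without mutant liver 2 (0.0511). The log2 fold change of Irs2 ranged from 2.37 without mutant liver 2 to 3.82 without WT liver 1. Irs1, next by p, was at 24.8 and 12.6 CPM in WT and at 44.7 and 43.9 CPM in the mutants (adjusted p = 0.0803, edgeR). Stat5b followed, at 46.2 and 31.4 CPM in WT and at 66.2 and 70.6 CPM in the mutants (log2 fold change 0.82, SE 0.23, adjusted p = 0.116, edgeR).

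Ghr, the growth hormone receptor, was at 812 and 468 CPM in WT and at 703 and 465 CPM in the mutants (log2 fold change -0.13, SE 0.34). Socs2 and Cish, feedback inhibitors that STAT5 is known to induce, separated the WT livers in the direction opposite to the Mups. Socs2 was at 9.31 CPM in WT liver 1 and 62.9 CPM in WT liver 2, and at 34.3 and 62.3 CPM in the mutants. Cish was at 5.03 and 18.2 CPM in WT and at 9.92 and 11.3 CPM in the mutants. In both genes WT liver 1 was lowest and the mutants lay between the WT livers. Igf1 and Igfals of the same list did not share that direction. Igf1 was at 1136 and 816 CPM in WT and at 730 and 870 CPM in the mutants. Igfals was at 134.4 and 133.7 CPM in WT and at 157 and 218 CPM in the mutants. Of the 17 genes, WT liver 1 was over 2-fold higher than WT liver 2 in 1 and over 2-fold lower in 3, with a median ratio of 1.19. Ghr, Socs2, Cish, Igf1 and Igfals were chosen for display after their values were seen.

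Of 21 liver transcription factors and repressors, 0 were called in edgeR's test, and the median log2 fold change was 0.18. At an unadjusted p under 0.05 in that test, 6 were higher and 3 lower, against 8.5% and 8.31% of all genes tested. DESeq2 called Tox and Trim24 higher and Cebpb and Foxa3 lower, and limma called 0. Cebpb, a factor of the acute phase response, was nearest the threshold, at 104.6 and 107.5 CPM in WT and at 32.6 and 55.5 CPM in the mutants (log2 fold change -1.27, SE 0.27, adjusted p = 0.0515, edgeR). Tox and Trim24 had log2 fold changes of 1.54 and 1.19, and Foxa3 and Onecut2 of -0.88 and 0.84. Cux2, a repressor known from female liver, was at 0.520 CPM in WT liver 1, 8.14 CPM in WT liver 2, and 46.8 and 15.03 CPM in the mutants (log2 fold change 2.80, SE 0.91, adjusted p = 0.170, edgeR). WT liver 1, which was highest in 8 of the 10 Mup members, had the lowest Cux2 and the highest Bcl6.

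**Figure D5:**
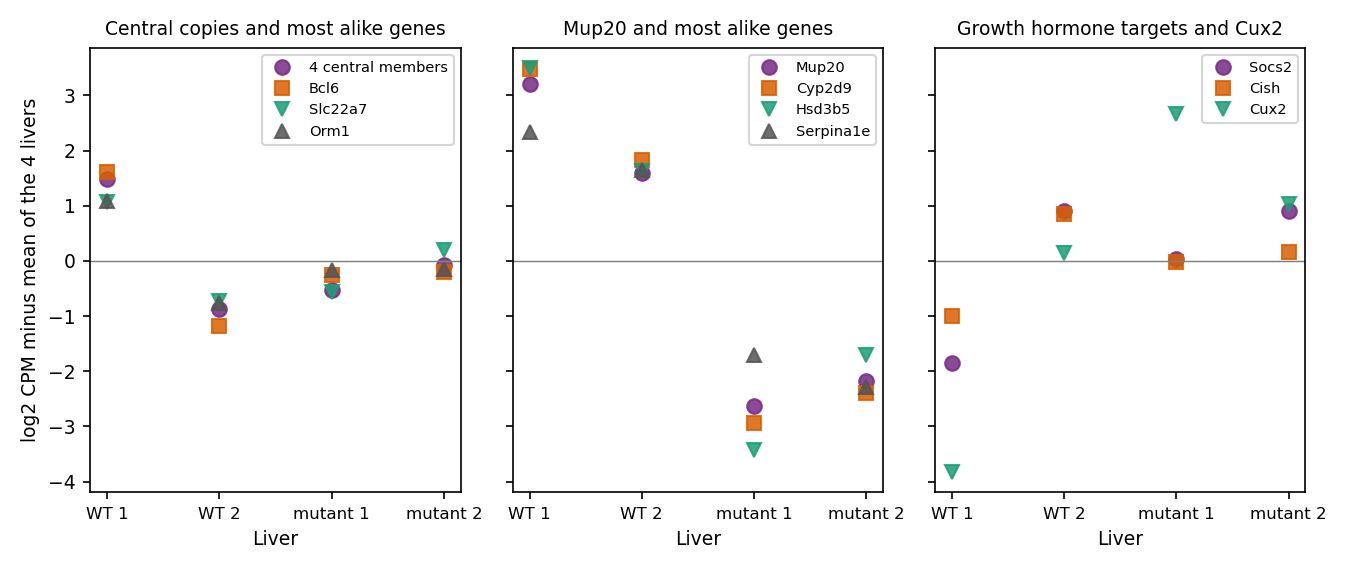
Log2 CPM minus the mean of the 4 livers, with 1 point per gene and liver, for the summed central members and 3 of the genes most like them (left), Mup20 and 3 of the genes most like it (middle), and Socs2, Cish and Cux2 (right). At left, WT liver 1 is high and the other livers lie together; in the middle, both WT livers lie above both mutants; at right, WT liver 1 is lowest.

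Genes beside the Mup cluster were compared with it. Of the 10 nearest listed genes on each side, 16 of 20 passed the filter. In edgeR's test 0 were called in either direction, and 0 were called by DESeq2 or limma. At an unadjusted p under 0.05 in edgeR's test, 2 were higher and 0 lower, against 8.5% and 8.31% of all genes tested. The median log2 fold change of the 16 was 0.14, and in 0 of the 16 were the WT livers over 2-fold apart. Nearest on the centromeric side, Snx30, Inip and E130308A19Rik had log2 fold changes of 0.27, 0.12 and -0.45. On the telomeric side, Slc31a2, Fkbp15 and the copper transporter gene Slc31a1 had 0.20, 0.16 and 0.02. Snx30 was at 7.23 and 6.91 CPM in WT and 9.12 and 7.87 CPM in the mutants, and its near end lies 52064 bases from the first Mup gene. Without mutant liver 1, Hsdl2 was called higher (1.25, adjusted p = 0.0233, edgeR).

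Other abundant secreted proteins of liver were read in the same way. Of 32 such genes, 1 fell (Serpina1e, adjusted p = 0.00336, edgeR) and 0 rose, against 1.47% and 1.39% of all genes tested. The median log2 fold change of the 32 was 0.076. WT liver 1 exceeded WT liver 2 by over 2-fold in 1 of the 32, Serpina3k, at 18090 and 8114 CPM. It did so in 10 of 10 Mup members and in 2.18% of all genes tested. Of 14 other lipocalins and related binding proteins tested, 0 were called in edgeR's test. At an unadjusted p under 0.05 in that test, 2 were higher and 4 lower, against 8.5% and 8.31% of all genes tested. DESeq2 called Orm3 higher and Fabp4 and Orm2 lower, and limma called Orm3 higher. Orm3, a lipocalin like the Mups, was at 2.60 and 0.899 CPM in WT and at 8.27 and 7.36 CPM in the mutants (log2 fold change 2.18, SE 0.46, adjusted p = 0.0523, edgeR).

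Markers of other cells were read beside the Mups. Summed over 7 Kupffer cell and macrophage genes they were at 149 and 182 CPM in WT and at 304 and 201 CPM in the mutants. The 7 stellate cell genes summed to 153 and 258 CPM in WT and to 315 and 241 CPM in the mutants, and the 7 sinusoidal endothelial genes to 66.9 and 90.4 CPM against 101 and 110 CPM. Within the stellate cell list edgeR's test called Dcn and Colec11 higher (1.36 and 1.51 on the log2 scale) and Col1a1 lower (-2.48). The 5 red blood cell genes summed to 437 and 553 CPM in WT and to 673 and 769 CPM in the mutants, while Alas2 among them was called lower (-1.94). Each of these sums was lowest in WT liver 1, which had the highest Mup share, and their part in the Mup values was not tested. The 6 bile duct genes summed to 70.7 and 54.7 CPM in WT and to 32.5 and 60.4 CPM in the mutants, and the 6 lymphocyte genes to under 10 CPM in every liver.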

How the data were processed

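RNA of 4 livers was measured. Libraries were made at BGI from TRIzol-extracted RNA, per the labels' protocols, and the tools HISAT, Bowtie2 and RSEM and the build mm10 come per the submitters' processing notes. The role of each aligner, the read length and the strand setting were details not given in the sources used here. For every liver a deposited table lists RefSeq transcripts with expected counts, RSEM's estimated counts, unscaled per the file headers, and with FPKM scaled by the authors to length and depth, per the file headers. RSEM divides reads shared by near-identical copies, which makes single central Mup genes uncertain and their sum less so.

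Expected counts were summed per gene (18602928 to 20044832 per liver) and rounded. Genes that a table did not list were given 0 there. The fit used edgeR 4.0.16 in R 4.3.3 (TMM, filterByExpr, quasi-likelihood F test, genotype as the only term, residual df 2) over all 12839 genes passing the filter, with Benjamini-Hochberg adjustment and a threshold of 0.05. Errors are SDs over 2 livers, and CPM use library sizes scaled by TMM. The central members were also merged to 1 feature. Fits that leave out a liver kept the same genes. The scripts were tested on simulated data. Alternatives were DESeq2 1.42.0, limma 3.58.1 on log2(FPKM + 1) and log2(FPKM + 0.1) of genes with a mean of at least 1 FPKM, 2 other scalings, no filter, a replicate block, library sizes without Mup members and leaving out each liver. Merging all 15 central copies was chosen after seeing the data.

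Transcript identity used pairwise alignment in Biopython 1.88 of GENCODE M21 transcripts, 1 per gene. Symbols came from RefSeq's gene table of GRCm38.p6 by Entrez number, which named 99.8% of the 17543 genes. The members and lists were chosen with earlier results of these data known. A gene of the hormone signalling list and another of the lipocalin list are not reported here and were left out of their lists' counts and medians. Named genes are all members, up to 6 genes with the smallest p in a list, the 3 nearest tested genes on each side of the cluster, sex chromosome genes, Arntl and Per2, and the 5 genes most like the central sum and Mup20.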

Additional observations from a re-analysis of the deposited data

How the results depend on the processing

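Mup20 kept its direction and its call under all 12 alternatives: -5.60 to -3.97 on the log2 scale over the fits without 1 liver, and -5.02 to -4.70 over the other 8. Every other member changed its call or its direction under at least 1. The 4 central members merged went from -1.77 to 0.59 over the fits without 1 liver, and the 15 central copies merged from -1.61 to 1.27, both positive without WT liver 1. The share of counts held by the 10 members differed by -2.29 to -0.016 points over those fits.

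Members called lower numbered 1 with all livers, 2 under DESeq2, 5 with no filter on low counts (Mup1, Mup3, Mup7, Mup20 and Mup21), and 1 to 7 without 1 liver. Members called higher numbered 0 to 2 without 1 liver, the 2 being Mup5 and Mup6 without WT liver 1. Without 1 liver, Mup2 ranged from -1.49 to 0.67, Mup10 from -1.67 to 0.54 and Mup4 from -2.04 to 1.94, each highest without WT liver 1. Mup5 ranged from -0.51 to 3.38 and Mup6 from -0.53 to 2.95, negative without WT liver 2 or mutant liver 1. Mup4 was also at 0.02 under limma with a pseudocount of 0.1. The causes were not tested, beyond the fewer livers in those fits.

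Over all genes, 189 were called lower and 178 higher. With total-count scaling 124 were lower, under DESeq2 370 lower and 368 higher, with no filter 420 and 411, under limma with a pseudocount of 1 69 and 94, and with 0.1 70 and 91. Without 1 liver the calls were 93 to 317 lower and 114 to 276 higher. Of the 38 hormone and liver factor genes, 0 were lower and 4 higher; lower calls were 1 with RLE scaling, 2 under DESeq2 and with no filter, and 0 to 2 without 1 liver. Higher calls were 7 under DESeq2, 8 with no filter, 1 and 2 under limma with pseudocounts of 1 and 0.1, and 2 to 7 without 1 liver. Of the secreted proteins, 1 was lower and 0 higher; DESeq2 called 6 lower and 1 higher, the fit with no filter 5 and 1, total-count scaling and limma with a pseudocount of 1 each 1 higher, and fits without 1 liver 1 to 5 lower and 0 to 2 higher. Cluster neighbours called higher numbered 0 to 1 without 1 liver.

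Same-numbered livers showed no shared shift over all genes: their deviations from the genotype means correlated at -0.00245 across genes. This single value cannot decide whether the livers were collected or processed in pairs. With a replicate block, Mup20 was at -4.80 (adjusted p = 0.0131, edgeR), the merged central members at -0.61 and the 15 central copies at -0.17. The block gave 1 lower call among the hormone and liver factor genes, and 2 lower and 1 higher among the secreted proteins, with 185 lower and 169 higher over all genes.

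With 2 livers of each genotype, an exact permutation test cannot go below 0.333. Mup4, Mup5 and Mup6 rest on few counts in WT liver 2, where counting error is large. A fit without 1 liver takes a gene's own spread from the pair of the other genotype, and edgeR draws it toward that of other genes.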
